A study of Mus musculus with 7 samples.

Results

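The 8 genes described here, Srebf1, Srebf2, Scap, Insig1, Insig2, Mlxipl, Nr1h3 and Thrsp, encode regulators that set the rate of fatty acid and cholesterol synthesis. They were taken as the rows of the deposited value table whose probe set is paired with exactly 1 gene symbol, keeping, for each gene, its brightest such probe set on average. All 8 of 8 were found, each with 1 probe set, among 19938 genes measured. Epididymal white adipose tissue, a fat pad that lies against the epididymis, came from aP2-XBP1 transgenic mice (n = 3), which overexpress the transcription factor XBP1 under the aP2 (Fabp4) promoter, and from wild type mice (n = 4). All were male, 17 weeks old, on a C57Bl/6J background and fed chow. aP2 is a carrier of fatty acids in adipocytes, and its promoter is also known to be active in macrophages. Since no label ties a replicate to an animal of its own, the p-values rest on sample-to-sample spread that could be technical.

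SREBP proteins are made as precursors in the membrane of the endoplasmic reticulum (ER). SCAP carries them to the Golgi for cleavage when sterols are low, and INSIG1 and INSIG2 hold SCAP back in the ER when sterols are high. SREBP-1c, from Srebf1, drives fatty acid synthesis genes in response to insulin, and SREBP-2, from Srebf2, mainly drives cholesterol synthesis. ChREBP, from Mlxipl, drives fatty acid synthesis genes in response to glucose. LXRα, from Nr1h3, is a nuclear receptor for oxysterols that turns on Srebf1. THRSP, also called Spot 14, is a small protein of lipogenic tissues whose transcript is a target of these factors. XBP1 is known for enlarging the folding capacity of the ER.

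Values are log2 expression after RMA, and a difference is transgenic minus wild type on that scale. The table held 35556 probe sets, with medians between 3.99 and 4.01 in transgenic arrays and between 4.03 and 4.04 in wild type arrays. The number of arrays limits the precision. Xbp1 read 9.76, 9.99 and 9.66 in transgenic replicates 1 to 3, against 8.90, 9.07, 8.94 and 9.19 in wild type replicates 1 to 4, a difference of 0.77 (SE 0.11). Its probe set cannot tell the transgene from the endogenous transcript. Wild type replicates 1, 3 and 4 stood apart from the other 4 libraries by transcripts of the epididymis. Of 8 measured epididymal markers, Serpina1f, Spink8 and Defb42 read from 2.48 to 3.73 in transgenic fat and from 8.41 to 11.50 in those 3 wild type libraries. They read from 2.45 to 2.74 in wild type replicate 2, and the other 5 markers read from 2.18 to 4.69 in all 7 libraries. Among these 5, Adam7 (4.69), Lcn8 (4.14) and Lcn9 (3.60) were highest in transgenic replicate 1. Lcn5 (3.82) and Spint4 (2.71) were highest in transgenic replicate 2. The mean of 10 adipocyte markers was 10.62 to 10.82 in transgenic fat, 9.93 to 10.27 in wild type replicates 1, 3 and 4 and 10.64 in wild type replicate 2. The labelled tissue was thus matched by its markers in all libraries, with lower adipocyte markers where Serpina1f, Spink8 and Defb42 were high. The 8 regulators, their pairs, the gene lists and the genes each list names are therefore also given against wild type replicate 2 alone. In a bulk sample, fewer cells of a type and less RNA per cell cannot be told apart.

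Among the 8 regulators, 6 were higher on average in transgenic fat, against 53.1% of all probe sets, while Srebf2 and Scap were lower. Thrsp differed most, followed by Insig1, Mlxipl and Srebf1. Insig2 and Nr1h3 differed less. None of the 8 passed an adjusted p of 0.05 in limma over all 21789 probe sets, where 0% were called in either direction. At an unadjusted p under 0.05, limma found 5 of the 8 higher in transgenic fat (Srebf1, Insig1, Mlxipl, Nr1h3 and Thrsp), against 4.82% of all probe sets, and 0 of the 8 lower, against 3.12%. All transgenic libraries lay above all wild type libraries for 3 of the 8 (Srebf1, Mlxipl and Thrsp), against 3.38% of all probe sets, and below them for 0 of the 8, against 2.44%. The median difference of the 8 was 0.47, and that of all probe sets was 0.01. In the same counts 7 of the 10 adipocyte markers were higher at an unadjusted p under 0.05 and 3 of 10 did not overlap, with a median difference of 0.44.

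**Figure D1:**
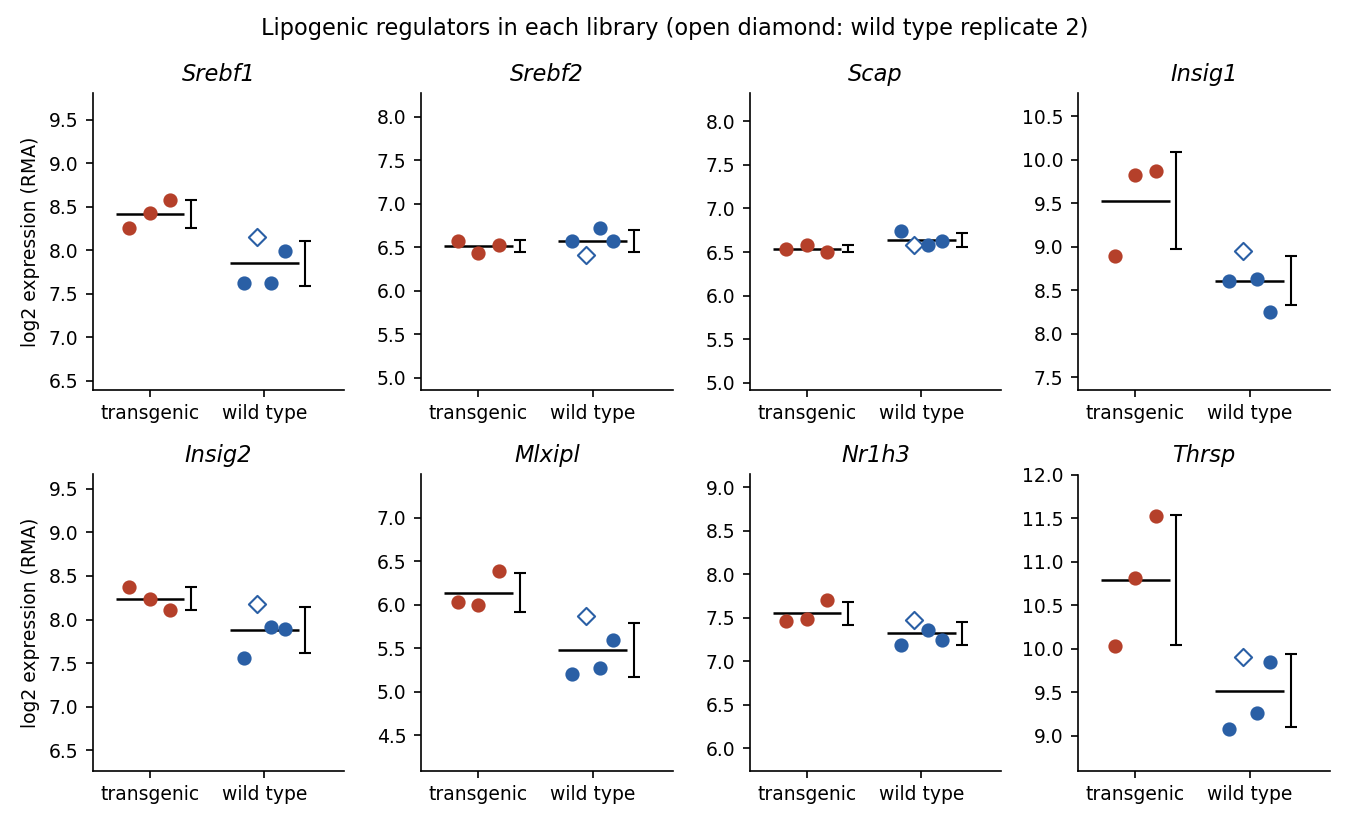
Log2 expression of each of the 8 regulators (vertical axes, all spanning the same range of log2 units) in the 3 transgenic and 4 wild type libraries; points are libraries, horizontal lines are means and bars at the side are SD. The open diamond, wild type replicate 2, is the highest wild type point for 6 of the 8 genes, and Srebf1, Srebf2, Mlxipl and Thrsp have every transgenic point above it; for Srebf2 it is the lowest point.

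Srebf1 (probe set 10386473), which encodes SREBP-1a and SREBP-1c from separate starts, read 8.26, 8.43 and 8.58 in transgenic replicates 1 to 3, against 7.63, 8.15, 7.62 and 7.99 in wild type replicates 1 to 4. Every transgenic library was above every wild type library, but transgenic replicate 1 and wild type replicate 2 were only 0.11 apart. The means were 8.42 ± 0.16 (SD, n = 3) in transgenic and 7.85 ± 0.26 (SD, n = 4) in wild type fat. The difference of 0.58 (SE 0.16, 1.49-fold, 95% interval 0.20 to 0.95) had a limma adjusted p = 0.622. Against wild type replicate 2 alone the difference was 0.28. The probe set gives 1 value for the gene, so the 1a and 1c transcripts were not separated.

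Srebf2 (10425695), the gene of SREBP-2, read 6.57, 6.43 and 6.53 in transgenic replicates 1 to 3, against 6.57, 6.41, 6.72 and 6.57 in wild type replicates 1 to 4. The groups overlapped, and wild type replicate 2 was the lowest library. The difference of -0.06 (SE 0.08, 95% interval -0.25 to 0.13) had a limma adjusted p = 0.803, and it was 0.09 against wild type replicate 2 alone. The difference between the paralogs was tested directly on Srebf1 minus Srebf2 in each library, a comparison of the 2 genes' differences and not of their levels. It was 1.69, 2.00 and 2.05 in transgenic replicates 1 to 3, against 1.06, 1.73, 0.90 and 1.42 in wild type replicates 1 to 4. The groups overlapped only by wild type replicate 2. The change of 0.64 gave an exact two-sided permutation p = 0.0857 over 35 splits (0.171 adjusted over the 2 pairs tested), so the paralogs were not shown to differ in their response. Against wild type replicate 2 alone the change was 0.18.

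The promoters of both SREBP genes are shown because these factors and LXR are known to act on them. They come from RefSeq (GRCm38.p6) and are windows of 300 bases across a transcript start. Srebf1 has 3 listed starts and Srebf2 has 1. The Srebf1 sequence, chr11:60210422-60210721 on the minus strand, is the start of the 1c transcript, known in the mouse for its LXR elements. The Srebf2 sequence is chr15:82147019-82147318 on the plus strand. Capitals mark TAACCCC in Srebf1, CACCCCA in Srebf2, and in both CCAAT, the motif of NF-Y, which works beside SREBPs. Both strands were searched, and ATTGG is CCAAT on the reverse strand.
Srebf1: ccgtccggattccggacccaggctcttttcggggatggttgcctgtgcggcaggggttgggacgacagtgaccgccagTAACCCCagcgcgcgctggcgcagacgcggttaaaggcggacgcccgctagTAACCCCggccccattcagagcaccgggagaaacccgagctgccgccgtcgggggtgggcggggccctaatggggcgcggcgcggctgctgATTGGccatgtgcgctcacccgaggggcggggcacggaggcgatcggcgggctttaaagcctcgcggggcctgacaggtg
Srebf2: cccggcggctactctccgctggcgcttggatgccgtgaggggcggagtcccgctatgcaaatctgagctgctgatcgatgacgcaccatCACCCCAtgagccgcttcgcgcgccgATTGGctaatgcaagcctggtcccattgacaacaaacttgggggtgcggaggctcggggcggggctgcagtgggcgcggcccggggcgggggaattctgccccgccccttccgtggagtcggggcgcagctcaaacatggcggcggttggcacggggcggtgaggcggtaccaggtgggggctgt
TAACCCC stands in 2.3% and CACCCCA, part of the sterol regulatory element, in 7.62% of 32851 mouse promoters of this length. Srebf1 holds TAACCCC at 2 places. Of its 3 starts, the window printed is the one with the most matches to TAACCCC and CCAAT. A promoter of Mlxipl, not printed here, also holds both TAACCCC and CACCCCA. These 2 motifs were added after the sequences had been seen, and a match is no evidence of binding. Srebf2 also holds CCACG, left in lower case there.

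Scap (10589511), the escort of SREBPs, read 6.54, 6.58 and 6.50 in transgenic replicates 1 to 3, against 6.74, 6.58, 6.58 and 6.63 in wild type replicates 1 to 4. Transgenic replicate 2 and wild type replicates 2 and 3 read alike, so the groups overlapped. The difference of -0.09 (SE 0.05, 95% interval -0.22 to 0.03) had a limma adjusted p = 0.662 and was -0.04 against wild type replicate 2 alone.

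Insig1 (10520362), the INSIG protein whose transcript is itself an SREBP target, read 8.89, 9.83 and 9.87 in transgenic replicates 1 to 3, against 8.61, 8.95, 8.63 and 8.25 in wild type replicates 1 to 4. Transgenic replicates 2 and 3 were high. Transgenic replicate 1 lay below wild type replicate 2 and above the other wild type libraries, so the groups overlapped. The means were 9.53 ± 0.56 (SD, n = 3) in transgenic and 8.61 ± 0.28 (SD, n = 4) in wild type fat. The difference of 0.92 (SE 0.28, 1.89-fold, 95% interval 0.24 to 1.60) had a limma adjusted p = 0.622, and it was 0.58 against wild type replicate 2 alone. The spread of 0.98 within transgenic fat was as large as the difference between the groups.

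Insig2 (10357280), the other INSIG gene, which is not driven by SREBPs in liver, read 8.37, 8.24 and 8.11 in transgenic replicates 1 to 3, against 7.56, 8.18, 7.91 and 7.89 in wild type replicates 1 to 4. Transgenic replicate 1, the lowest transgenic library for Insig1, was the highest for Insig2. The difference of 0.35 (SE 0.15, 1.28-fold) had a limma adjusted p = 0.630 with overlapping groups, and it was 0.06 against wild type replicate 2 alone. Insig1 minus Insig2 was 0.52, 1.60 and 1.76 in transgenic replicates 1 to 3, against 1.05, 0.77, 0.72 and 0.36 in wild type replicates 1 to 4. Transgenic replicates 2 and 3 were above every wild type library and transgenic replicate 1 was among them. The change of 0.57 gave an exact two-sided permutation p = 0.229 over 35 splits (0.229 adjusted over the 2 pairs). It was 0.52 against wild type replicate 2 alone, 0.95 without transgenic replicate 1 and 0.33 without transgenic replicate 3.

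The Insig1 promoter is shown because, of the 15 promoters listed for the 8 genes, it was the only one with the cores GACGTG and AGGTCA. It lies at chr5:28071162-28071461 on the plus strand of GRCm38.p6. Capitals mark CACGTG (the E-box, bound by ChREBP and by SREBP-1), CCACG and GACGTG (in sites of XBP1 and ATF6), AGGTCA (a nuclear receptor half-site) and CCAAT, on either strand.
Insig1: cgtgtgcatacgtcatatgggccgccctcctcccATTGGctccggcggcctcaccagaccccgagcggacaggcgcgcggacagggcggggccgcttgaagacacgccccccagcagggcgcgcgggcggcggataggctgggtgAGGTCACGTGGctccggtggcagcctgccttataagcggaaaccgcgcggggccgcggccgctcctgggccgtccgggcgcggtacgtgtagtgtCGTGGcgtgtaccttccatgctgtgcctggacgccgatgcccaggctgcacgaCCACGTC
A single run of capitals there joins AGGTCA with CACGTG and CCACG, which overlap, and the last bases join CCACG and GACGTG, which overlap too. GACGTG stands in 6.38% of the 32851 promoters, AGGTCA in 16.3%, CACGTG in 7.15% and CCACG in 32.8%. These letters were found in the sequence, and no binding was measured.

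Mlxipl (10526277), the gene of ChREBP, read 6.03, 6.00 and 6.39 in transgenic replicates 1 to 3, against 5.20, 5.87, 5.27 and 5.60 in wild type replicates 1 to 4. The groups did not overlap, with transgenic replicate 2 and wild type replicate 2 nearest, 0.14 apart. The means were 6.14 ± 0.22 (SD, n = 3) in transgenic and 5.48 ± 0.31 (SD, n = 4) in wild type fat. The difference of 0.65 (SE 0.19, 1.57-fold, 95% interval 0.20 to 1.11) had a limma adjusted p = 0.622, and it was 0.27 against wild type replicate 2 alone. The probe set gives 1 value for the α and β isoforms, whose starts differ.

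Nr1h3 (10484987), the gene of LXRα, read 7.46, 7.49 and 7.70 in transgenic replicates 1 to 3, against 7.19, 7.47, 7.36 and 7.24 in wild type replicates 1 to 4. Wild type replicate 2 lay among the transgenic libraries. The difference of 0.23 (SE 0.09, 1.17-fold, 95% interval 0.01 to 0.45) had a limma adjusted p = 0.622, and it was 0.08 against wild type replicate 2 alone.

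Thrsp (10565609) read 10.03, 10.81 and 11.52 in transgenic replicates 1 to 3, against 9.08, 9.91, 9.26 and 9.85 in wild type replicates 1 to 4. The groups did not overlap, but transgenic replicate 1 was only 0.12 above wild type replicate 2 and 1.49 below transgenic replicate 3. The means were 10.79 ± 0.75 (SD, n = 3) in transgenic and 9.52 ± 0.42 (SD, n = 4) in wild type fat. The difference of 1.26 (SE 0.39, 2.4-fold, 95% interval 0.33 to 2.20) had a limma adjusted p = 0.622. The exact permutation p, two-sided and not adjusted, was 0.0286, which no split of 35 can go below. The same exact test gave 0.0571 for Srebf1, Insig1 and Mlxipl, 0.0857 for Insig2 and Nr1h3, 0.171 for Scap and 0.457 for Srebf2. Against wild type replicate 2 alone the difference was 0.87.

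The Thrsp promoter, chr7:97417501-97417800 on the minus strand of GRCm38.p6, is shown as that of the gene with the largest difference. Capitals mark CCAAT on either strand, which stands in 37.4% of the 32851 promoters.
Thrsp: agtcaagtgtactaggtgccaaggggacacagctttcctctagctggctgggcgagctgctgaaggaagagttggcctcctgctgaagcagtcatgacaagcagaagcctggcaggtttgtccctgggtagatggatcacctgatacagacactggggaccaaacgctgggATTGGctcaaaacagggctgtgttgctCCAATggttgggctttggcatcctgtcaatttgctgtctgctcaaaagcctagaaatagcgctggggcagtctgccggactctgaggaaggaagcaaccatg
Thrsp holds CCAAT at 2 places and none of the other 7 motifs searched. Over all 15 promoters of the 8 genes CCAAT stood in 7, CCACG in 5, CACGTG in 4 and ACCCCAC, another part of the sterol regulatory element, in 0, against 6.21% of all promoters. Of the 4 with CACGTG, 2 are overlapping windows of Scap that share the match, and the others belong to Insig1 and Mlxipl.

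**Figure D2:**
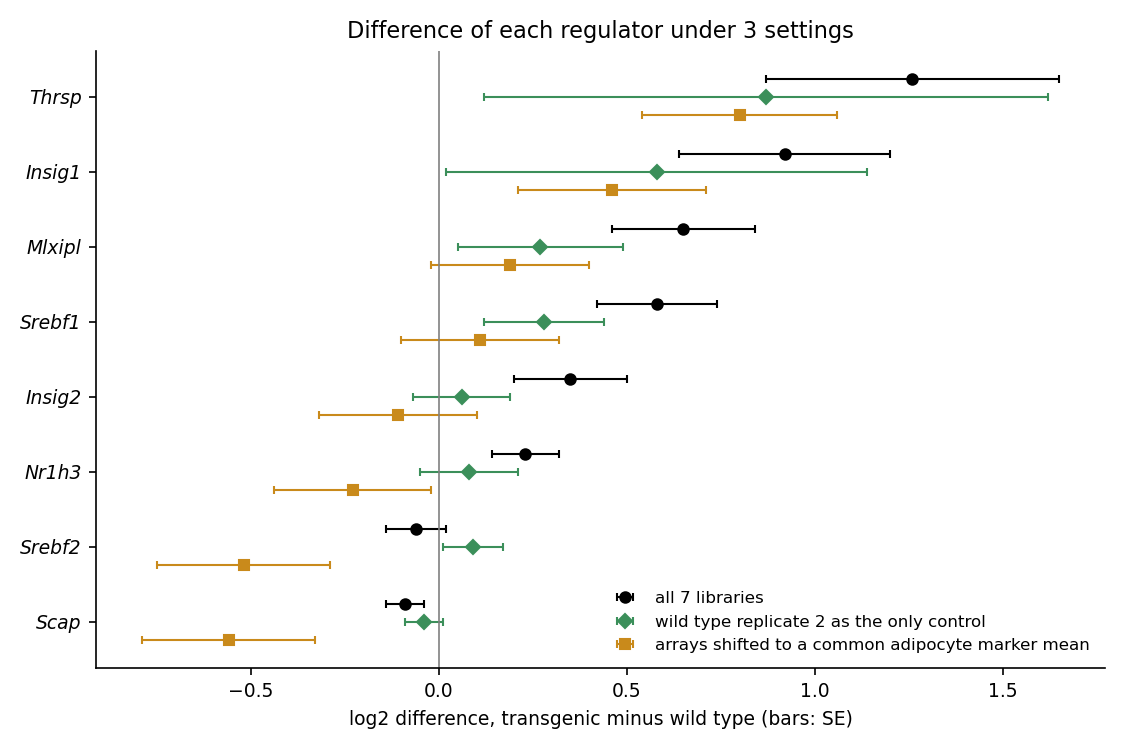
Log2 difference, transgenic minus wild type, of each regulator (horizontal axis; bars are limma's SE) with all 7 libraries, against wild type replicate 2 alone, and with arrays shifted to a common mean of the adipocyte markers. Thrsp and Insig1 stay above 0 by the most in all 3 settings, at 1.26, 0.87 and 0.80 and at 0.92, 0.58 and 0.46. Insig2, Nr1h3 and Srebf2 lie on either side of 0, Srebf2 at -0.06, 0.09 and -0.52.

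Wild type replicate 2 was the highest wild type library for 6 of the 8 regulators, as it was for all 10 adipocyte markers. Set against that library, all 3 transgenic libraries were higher for Srebf1, Srebf2, Mlxipl and Thrsp, 2 of 3 for Insig1, Insig2 and Nr1h3, and 0 of 3 for Scap. The differences from it were 0.11, 0.28 and 0.43 in transgenic replicates 1 to 3 for Srebf1. They were 0.12, 0.90 and 1.61 for Thrsp and -0.06, 0.89 and 0.92 for Insig1. Transgenic replicate 1 was thus close to wild type replicate 2 in all 3 genes. A single control library gives no spread of its own, and the limma adjusted p of the 8 regulators was at least 0.734 in that fit.

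The adipocyte markers were used as a second yardstick, chosen after the data were seen. With arrays shifted to a common mean of these 10 genes, the median difference of all probe sets moved to -0.45, and all 8 differences were lower by about that much by construction. Thrsp then differed by 0.80 (limma adjusted p = 0.110), Insig1 by 0.46 (0.124), Mlxipl by 0.19 (0.381) and Srebf1 by 0.11 (0.604). Insig2 (-0.11) and Nr1h3 (-0.23) turned sign, and Srebf2 and Scap were at -0.52 and -0.56 (both 0.110). Against the adipocyte marker mean, the estimates for Thrsp, Insig1, Mlxipl and Srebf1 were therefore above 0 and the other 4 below 0. None had a limma adjusted p under 0.05. The 95% intervals, which are not adjusted, lay above 0 for Thrsp (0.26 to 1.34) and below 0 for Scap (-1.03 to -0.08). For Srebf2 the interval was also below 0, with an upper bound of -0.04. The intervals of Insig1 (-0.06 to 0.98), Mlxipl (-0.23 to 0.62), Srebf1 (-0.31 to 0.54), Insig2 (-0.54 to 0.33) and Nr1h3 (-0.67 to 0.21) held 0. Scap and Srebf2 were close to the median of all probe sets, -0.45. A fit with the mean of Serpina1f, Spink8 and Defb42 as a covariate, also chosen after the data were seen, gave 0.92 for Thrsp, 0.58 for Insig1, 0.32 for Srebf1 and 0.31 for Mlxipl. It gave 0.10 for Insig2, 0.08 for Nr1h3, 0.08 for Srebf2 and -0.05 for Scap, with a limma adjusted p = 1.000 for each of the 8. Since wild type replicate 2 is the only wild type library without these transcripts, this fit leans on the same library as the comparison above.

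**Figure D3:**
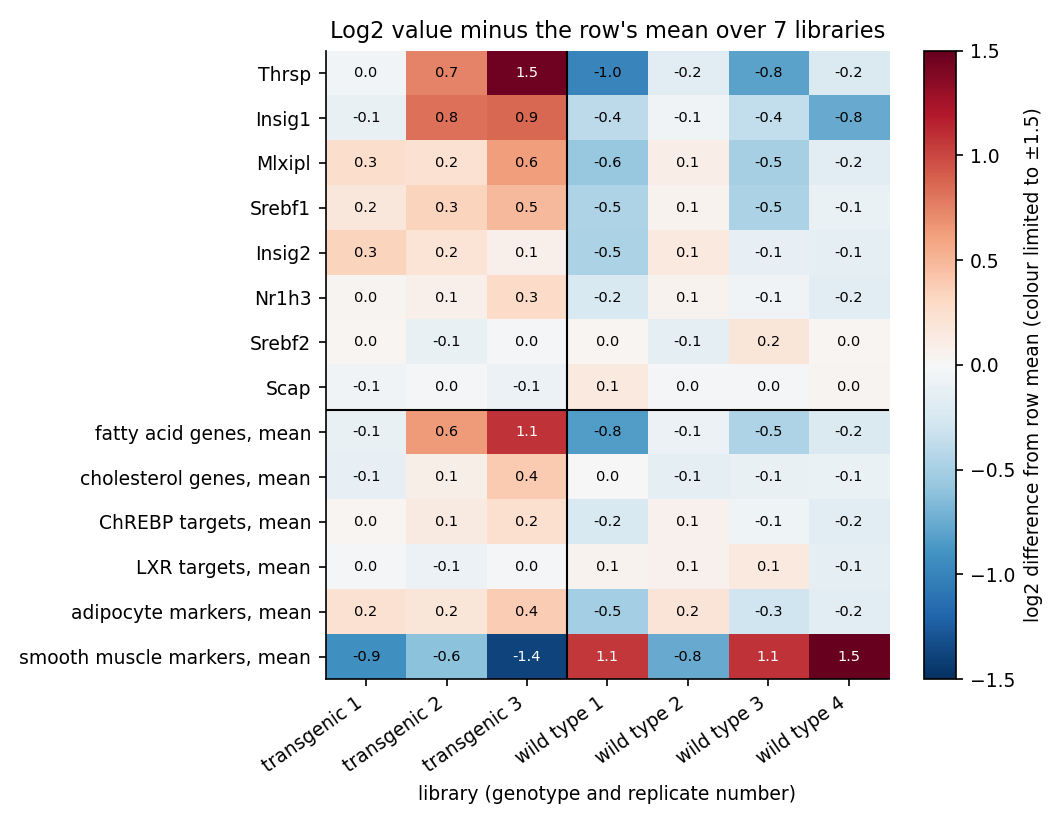
Log2 value minus the row's own mean over the 7 libraries, for the 8 regulators (upper rows) and for gene list means (lower rows). The lists shown are fatty acid genes, cholesterol genes, ChREBP targets, LXR targets, adipocyte markers and smooth muscle markers. Columns are libraries, and colour is limited to ±1.5. Transgenic replicates 2 and 3 are high for Thrsp, Insig1 and the fatty acid genes, transgenic replicate 1 and wild type replicate 2 lie near the row means, and the smooth muscle markers are high in wild type replicates 1, 3 and 4.

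Genes with the profile nearest to a regulator were sought for the 3 with the largest SD over the 7 libraries, by the root mean square difference of values centred on each gene's own mean, among 17162 other genes. Nearest to Thrsp were Pnpla3 (0.08), a lipid droplet protein, Mpc1 (0.13), a subunit of the mitochondrial pyruvate carrier, and Enpep (0.16), a peptidase. Pnpla3 read 7.21, 7.98 and 8.55 in transgenic replicates 1 to 3, against 6.24, 7.18, 6.47 and 7.14 in wild type replicates 1 to 4, the same order of libraries as Thrsp. Nearest to Insig1 were Pgd (0.13), an NADPH-producing enzyme of the pentose phosphate pathway, Klb (0.16), the co-receptor of FGF21, and Hsd17b12 (0.18), a reductase of fatty acid elongation. Nearest to Mlxipl were Ivd (0.06), an enzyme of leucine breakdown, Cluh (0.07), which binds mRNAs of mitochondrial proteins, and Tdrp (0.07). Because the neighbours were picked on these same values, they repeat the pattern of their regulator by construction. Those of Thrsp and Insig1 had transgenic replicates 2 and 3 high, and those of Mlxipl had transgenic replicate 3 highest. Pnpla3 and Pgd are also in the fatty acid list below. All 7 values enter each distance, those of the epididymis-bearing libraries included.

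Fatty acid synthesis and desaturation genes, known targets of SREBP-1c, ChREBP or LXR, had a higher mean in transgenic fat for 15 of 17 measured genes, with a median difference of 1.00. Of these 0 passed an adjusted p of 0.05 in limma, and at an unadjusted p under 0.05 there were 12 of 17 higher and 1 lower, against 4.82% and 3.12% of all probe sets. All transgenic libraries were above all wild type libraries for 7, against 3.38% of all probe sets. The gap between the groups rounded to 0.00 for Elovl5, and was 0.02 for Acss2 and Pnpla3 and 0.03 for Aacs. It was 0.12 for Gpam, 0.19 for Acly and 0.22 for Acacb. Elovl5, Acss2, Gpam and Acacb were named after their values were seen. The median difference of the list was 0.47 against wild type replicate 2 alone. The 3 with the smallest p were Acaca (1.76), acetyl-CoA carboxylase, Acly (1.84), ATP citrate lyase, and Aacs (0.87), acetoacetyl-CoA synthetase, each with a limma adjusted p = 0.622. Against wild type replicate 2 alone they differed by 0.79, 1.47 and 0.45 in that order. Aacs read 8.52, 8.87 and 9.43 in transgenic replicates 1 to 3, against 7.79, 8.49, 7.91 and 8.11 in wild type replicates 1 to 4. As with Thrsp and Insig1, transgenic replicate 1 was the lowest transgenic library for 15 of the 17 genes. The median of the 17 differences from wild type replicate 2 was 0.00 in transgenic replicate 1, 0.56 in transgenic replicate 2 and 1.02 in transgenic replicate 3. Fads2, the Δ6 desaturase, had the largest difference of the other sign, -1.49, and read 7.97, 7.79 and 7.36 in transgenic replicates 1 to 3, against 9.37, 7.76, 9.48 and 10.16 in wild type replicates 1 to 4. It was high only in the wild type libraries with epididymal transcripts, and its difference from wild type replicate 2 was -0.05.

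Cholesterol synthesis and uptake genes, the classical targets of SREBP-2, were less uniform, with 13 of 18 higher in transgenic fat and a median difference of 0.16. Limma passed 0 of them, and an unadjusted p under 0.05 was reached by 6 higher and 1 lower, with the same shares of all probe sets as above (4.82% and 3.12%). The groups did not overlap for 4, all higher (3.38% of all probe sets). Sc5d (0.60), Lss (1.02) and Ebp (0.45), enzymes that act after squalene, had the smallest p (limma adjusted p = 0.622 each), and were among those 4. Their differences from wild type replicate 2 were 0.32, 0.67 and 0.25. Lss read 5.72, 6.56 and 6.87 in transgenic replicates 1 to 3, against at most 5.71 in wild type fat, in replicate 2, with which transgenic replicate 1 was level. Sc5d, the enzyme with the smallest p of the list, read 8.47, 8.58 and 8.63 in transgenic replicates 1 to 3, against 7.87, 8.24, 7.81 and 7.94 in wild type replicates 1 to 4. Stard4, a sterol carrier, differed by -0.48 and by -0.06 from wild type replicate 2. The list's median was 0.24 against wild type replicate 2 alone.

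**Figure D4:**
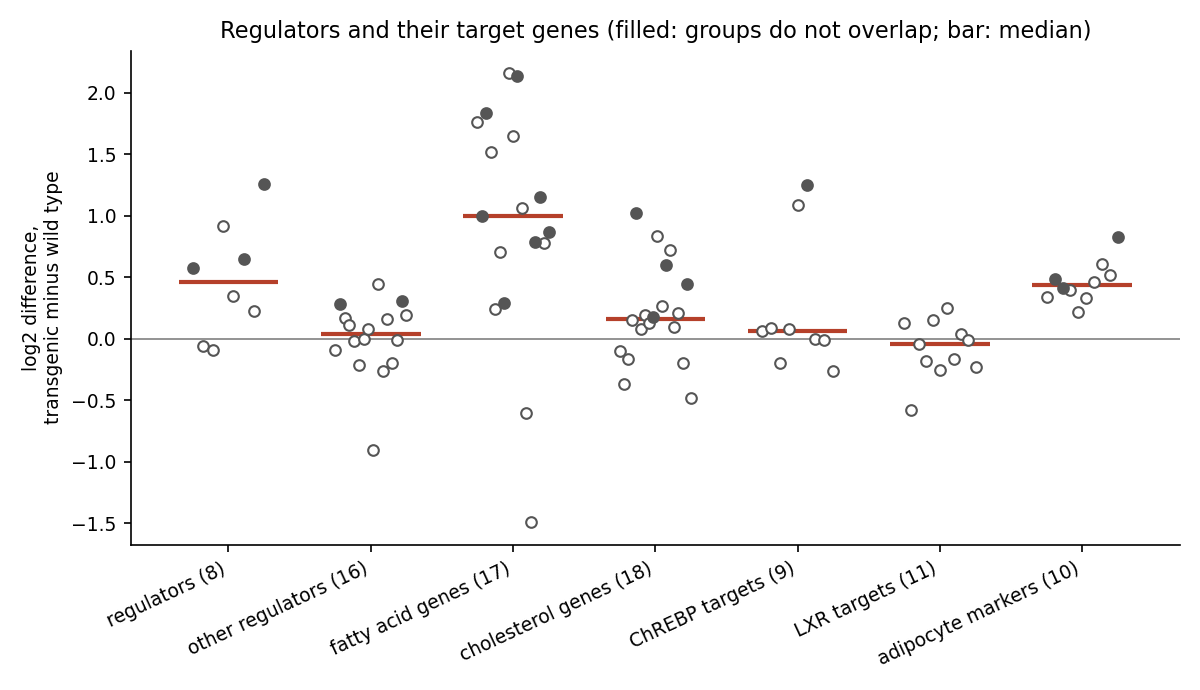
Log2 difference, transgenic minus wild type (vertical axis), of every measured gene in the regulators, 5 lists of their pathway and the adipocyte markers; filled points are genes whose groups do not overlap and red bars are medians. The fatty acid genes have a median of 1.00, the cholesterol genes 0.16, the ChREBP targets 0.06 and the LXR targets -0.04.

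Glucose-responsive genes known as ChREBP targets outside fatty acid synthesis had 5 of 9 higher means and a median difference of 0.06, with 0 passing in limma and an unadjusted p under 0.05 in 2 higher and 1 lower (4.82% and 3.12% of all probe sets). The median was -0.05 against wild type replicate 2 alone. Fgf21 (3.17 to 3.32) read below the array medians in all 7 libraries, so its small difference says little. Tkt, transketolase, differed by 1.25 and Gpd1, glycerol-3-phosphate dehydrogenase, by 1.09 (limma adjusted p = 0.622 each), and by 0.67 and 0.70 from wild type replicate 2 alone. Tkt read 9.92, 10.51 and 11.19 in transgenic replicates 1 to 3, against 8.87, 9.87, 9.19 and 9.21 in wild type replicates 1 to 4. The arrestin-like genes that ChREBP is known for did not share this pattern, with Arrdc4 at -0.20 and Txnip at 0.09 (-0.13 and -0.05 against wild type replicate 2). Klf10, a transcription factor, had the largest difference of the other sign, -0.26 (-0.53 against wild type replicate 2). Txnip was named after its value was seen.

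LXR targets of cholesterol efflux and lipid remodelling had 4 of 11 higher means and a median difference of -0.04, with 0 passing in limma and 0 at an unadjusted p under 0.05 in either direction, against 4.82% higher and 3.12% lower of all probe sets. The median was -0.12 against wild type replicate 2 alone. Abcg5 (2.70 to 2.87) and Abcg8 (2.58 to 2.86) read below the array medians in all 7 libraries. Their small differences therefore say little, and Abcg5 (0.04) was among the 4 counted as higher. The smallest p belonged to Abcg1, a cholesterol exporter, which read 7.05, 6.84 and 6.92 in transgenic replicates 1 to 3, against 7.85, 7.40, 7.90 and 6.90 in wild type replicates 1 to 4 (difference -0.58, limma adjusted p = 0.630, and -0.47 from wild type replicate 2 alone). Wild type replicates 1 and 3 were highest, and wild type replicate 4 lay among the transgenic libraries. The mean of 8 macrophage markers was 8.02, 8.19 and 8.37 in transgenic replicates 1 to 3, against 9.11, 8.29, 9.08 and 7.59 in wild type replicates 1 to 4, so it too was highest in wild type replicates 1 and 3. Of the 8 markers, 7 had a lower mean in transgenic fat and 1, Cd163, a higher one. Cd163, named after its values were seen, read 9.05, 8.99 and 9.10 in transgenic replicates 1 to 3. It read 7.63, 8.66, 8.11 and 8.24 in wild type replicates 1 to 4, lowest in replicate 1. Apoe, the apolipoprotein, differed by -0.18 and Lpl, lipoprotein lipase, by 0.25, and by -0.16 and -0.08 from wild type replicate 2. The part of macrophage RNA in these values was not tested.

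Of 16 other regulators of the pathway, 8 had a higher and 8 a lower mean in transgenic fat, with a median difference of 0.04 (-0.04 against wild type replicate 2 alone) and 0 passing in limma. At an unadjusted p under 0.05 there were 2 higher, Prkaa1 (0.31) and Prkaa2 (0.19), both catalytic subunits of AMP-activated kinase, and 1 lower, Pgrmc1 (-0.90), against 4.82% and 3.12% of all probe sets. Prkaa1 and Prkaa2 differed from wild type replicate 2 by 0.13 and 0.15. Pgrmc1, a membrane haem-binding protein reported to bind SCAP and INSIG1, read 8.21, 8.21 and 8.44 in transgenic replicates 1 to 3, against 9.25, 8.31, 9.33 and 9.85 in wild type replicates 1 to 4. Like Fads2 it was high only in the wild type libraries with epididymal transcripts, and it differed from wild type replicate 2 by -0.02. Mlx, the dimer partner of ChREBP, read 6.30, 6.20 and 6.74 in transgenic replicates 1 to 3, against 6.20, 6.20, 5.95 and 6.20 in wild type replicates 1 to 4. Its groups did not overlap only by a margin that rounds to 0.00, and it differed from wild type replicate 2 by 0.22. Mbtps1, the protease that cuts SREBPs first, differed by -0.09 (-0.13 from wild type replicate 2). Mlx and Mbtps1 were named after their values were seen.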

How the data were processed

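The authors deposited log2 expression values made with RMA, per the submitters' processing notes, from total RNA labelled from 100 ng, per the labels' protocols. No source used here gives the RMA version or probe set definition. RMA makes the arrays' distributions alike, which would hide a change shared by most genes. Of 35556 probe sets, 21789 had exactly 1 gene symbol in the platform annotation, 1621 had several and 12146 had none or were not listed; the 21789 were tested. They stand for 19938 genes, and 0 symbols needed an update by RefSeq. No value column was left unused (0).

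Genotype was the only term in limma 3.58.1 (R 4.3.3; lmFit, eBayes, two-sided, Benjamini-Hochberg over 21789 probe sets, threshold 0.05). Single values had an exact permutation test over 35 splits. The 5 pathway lists (82 entries), 6 marker lists, members and tests were chosen with earlier results of these data known. Each pathway list named the 3 genes of smallest p and the largest of the other sign; other genes so marked were chosen after their values were seen. Alternatives were a replicate block, more quantile normalization, a common median, a filter on dim probe sets, all rows, 1 probe set per gene, a robust trend, array weights (statmod 1.5.0), an adjusted p of 0.1, the mean of a gene's probe sets, leaving out each library and using wild type replicate 2 alone as control. A common adipocyte marker mean and an epididymal covariate (mean of Serpina1f, Spink8 and Defb42) were added after the data were seen. The fit was tested on simulated data. No 2 arrays were identical: at most 15.4% of probe sets shared a value in any pair. Figures used Python 3.11.15, pandas 2.3.3 and matplotlib 3.10.9.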

Additional observations from a re-analysis of the deposited data

Results flagged for a closer look

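Wild type replicate 2 lay far below the other 3 wild type libraries in 3 genes of the epididymis, a gap larger than expected within a group of 4 at the 95% level. It read 2.74 for Serpina1f, against 10.70 to 11.50 in the others, 2.45 for Spink8, against 8.82 to 9.51, and 2.51 for Defb42, against 8.41 to 9.14. These 3 were among 34 genes examined, of which chance alone marks about 1 in 20. They were included as marks of tissue other than fat, with earlier results of these data known. That rate is therefore no yardstick for them, and their flags restate the split of the wild type libraries described above. None of the 8 regulators had such a library in wild type fat, and groups of 3 were not examined.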

How the results depend on the processing

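None of the 8 regulators passed an adjusted p of 0.05 in limma in any alternative run, and all 8 kept their sign except in 4 cases. Srebf2 was at 0.09 against wild type replicate 2 alone and 0.08 with the epididymal covariate, and Insig2 and Nr1h3 were at -0.11 and -0.23 with a common adipocyte marker mean. Leaving out each library gave 0.90 to 1.64 for Thrsp, 0.75 to 1.24 for Insig1, 0.53 to 0.78 for Mlxipl and 0.50 to 0.68 for Srebf1. Over all probe sets limma called 0 in either direction, and 0 to 7 higher and 0 to 84 lower with a library left out, the largest counts without wild type replicate 2. A common adipocyte marker mean, which moved the median of all probe sets to -0.45, gave 8 higher and 240 lower, and the epididymal covariate 3 lower.

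Against wild type replicate 2 alone the median was 0.47 for fatty acid genes and -0.04 for other regulators. With the covariate these were 0.50 and -0.06, and with a common adipocyte marker mean 0.54 and -0.42, where cholesterol genes were at -0.30, ChREBP targets at -0.41 and LXR targets at -0.50. LXR targets were at -0.16 without the dimmest probe sets and at -0.15 with array weights. The cholesterol median was 0.06 without transgenic replicate 3, and the ChREBP median -0.03 without wild type replicate 1 and 0.13 without wild type replicate 2. The cause of these shifts was not tested. Each regulator has 1 probe set, so averaging probe sets changed nothing by construction. With a library left out, the exact tests of the 2 pairs cannot reach 0.05. As a replicate block, the shared numbers gave 0 calls, with Srebf1 at 0.62 and Thrsp at 1.37 (limma adjusted p = 0.648 each). Deviations of same-numbered libraries correlated at -0.146, -0.104 and 0.056, and no transgenic library correlated best with its own number, so the numbers were not taken as pairs.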
